A study of Mus musculus with 6 samples.

Results

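Laminins, collagen IV, nidogens and perlecan build the basement membrane, the sheet of matrix that epithelia rest on. Transcripts of 10 such genes were followed in mouse embryonic stem cells (ESCs) depleted of cohesin or condensin. The 10 genes were chosen by name, for the protein they encode: Col4a1, Col4a2, Lama1, Lama5, Lamb1, Lamc1, Nid1, Nid2, Hspg2 and Sparc. They are 10 of the 20706 genes with a symbol in the tables, each had a single RefSeq row, and each had at least 1143 reads in every library.

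Laminin is a trimer of an alpha, a beta and a gamma chain. Lama1 with Lamb1 and Lamc1 gives laminin-111, the form of the early embryo, and Lama5 with the same beta and gamma chains gives laminin-511. Col4a1 and Col4a2 chains twist together into the collagen IV network, nidogens (Nid1, Nid2) bridge that network and laminin, perlecan (Hspg2) is a heparan sulphate proteoglycan of the same sheet, and Sparc is a secreted protein that binds collagen.

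All cells were V6.5 ESCs, a C57BL/6-129 line kept on irradiated mouse embryonic fibroblast feeders and moved to gelatin, without feeders, for 1 passage before expression was measured. They were infected with virus carrying a short hairpin RNA (shRNA) and selected with puromycin at 0.5 µg/ml for 48 hours and then 1 µg/ml for 48 hours. The control hairpin, against GFP, gave 1 library, as did the hairpin against SMC1, a subunit of cohesin. The condensin II subunit CAPH2 and SMC2, a subunit of both condensins, had 2 libraries each, from 2 different hairpins (R1 and R2). RNA from the equivalent of 652000 counted cells entered each of the 6 libraries with a fixed volume of synthetic ERCC RNAs. The groups therefore differ in the hairpin alone as labelled, and no source states separate cultures within a group, so p-values measure the spread between these libraries only. The SMC1 and GFP groups are each a single hairpin in a single library.

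Total counts ran from 25467427 to 31337313 per library, and levels are given in RPKM, reads scaled to exon length and to the depth of the library. Each target transcript was lower than in GFP in the libraries labelled for it. The CAPH2 transcript was also lower elsewhere, at 67.3% of GFP in SMC1 and 79.6% and 80.9% in SMC2 R1 and R2. Smc1a was at 39.9% of GFP in the SMC1 library, Ncaph2 (the gene of CAPH2) at 21.0% and 34.8% in CAPH2 R1 and R2, and Smc2 at 70.7% and 71.9% in SMC2 R1 and R2, while Smc2 stood at 152% to 159% of GFP in the other 3 knockdown libraries. The 7 ESC markers were all lower in the SMC1 library, where the sum of their RPKM was 1187 against 2613 in GFP and 2201 to 2347 in the 4 condensin libraries. In these bulk samples, fewer cells of a type and less RNA per cell cannot be told apart.

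In the GFP library the 10 genes spanned 8.27 RPKM (Col4a2) to 171 RPKM (Sparc). Sparc was at or above 97.1% of the 15538 rows with at least 1 RPKM in GFP, and Col4a2 at or above 35.1% of them. Between them lay Nid2 (82.6 RPKM), Lamc1 (81.7), Hspg2 (47.7), Lamb1 (32.6), Lama5 (30.4), Nid1 (25.6), Lama1 (13.1) and Col4a1 (12.2). Neighbours in that order whose 95% counting intervals overlapped were Nid2 (80.9 to 84.3 RPKM) and Lamc1 (80.4 to 83.1 RPKM), and Lama1 (12.6 to 13.6 RPKM) and Col4a1 (11.6 to 12.8 RPKM). Counting intervals leave out the variation between cultures, which a single library cannot show. Of the 10 transcripts, 9 had more exon sequence than the median row, with a median of 6520 bases against 2748.

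**Figure D1:**
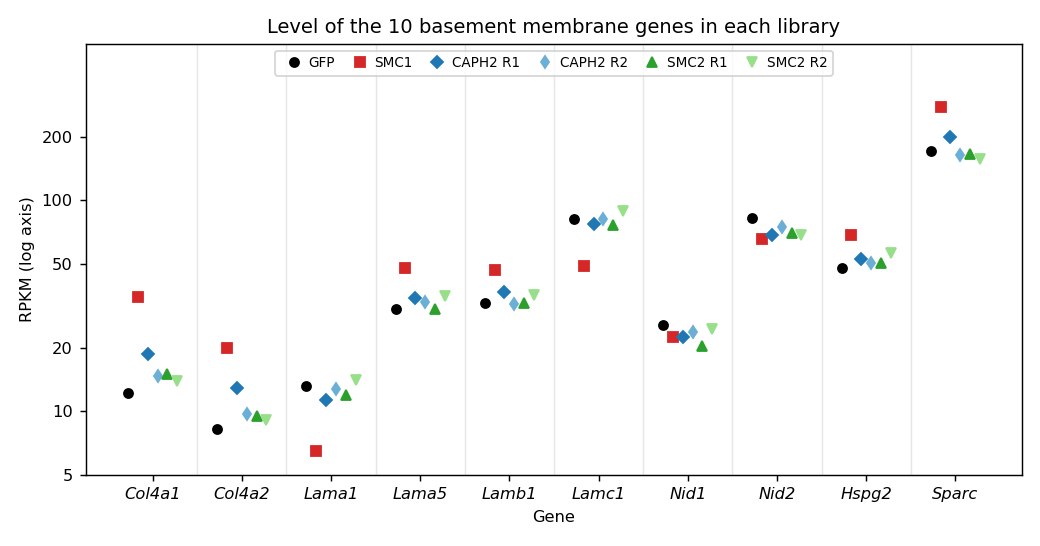
RPKM (log axis) of the 10 genes, with 1 point for each of the 6 libraries. The SMC1 point lies above the other 5 for Col4a1, Col4a2, Lama5, Lamb1, Hspg2 and Sparc, and below them for Lama1, Lamc1 and Nid2. Over all 15538 rows with at least 1 RPKM in GFP, SMC1 was the highest library in 34.3% and the lowest in 37.5%.

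After SMC1 knockdown the 2 collagen IV genes were more than 2-fold higher than in GFP, the laminin alpha 1 gene was 2.03-fold lower, and the other 7 changed by less than 2-fold. Of all 15538 rows, 6.49% were at least 2-fold higher and 8.17% at least 2-fold lower in SMC1, against 2 and 1 of the 10 genes. The genes thus did not move as a block: the collagen IV pair, Lama5, Lamb1, Hspg2 and Sparc were higher in SMC1, while Lama1, Lamc1, Nid1 and Nid2 were lower, of which Lamc1, Nid1 and Nid2 turn to higher when libraries are scaled to spike-in RNAs. With 1 library in each group this comparison has no replicate check and no test.

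Col4a1 measured 12.2 RPKM in GFP, 34.9 in SMC1, 18.7 and 14.7 in CAPH2 R1 and R2, and 15.1 and 13.9 in SMC2 R1 and R2. Col4a2 measured 8.27 RPKM in GFP, 19.9 in SMC1, 12.8 and 9.73 in CAPH2 R1 and R2, and 9.45 and 9.10 in SMC2 R1 and R2. For both genes SMC1 was the highest library, CAPH2 R1 the next and GFP the lowest. The SMC1 level was 2.86-fold that of GFP for Col4a1 (95% counting interval 2.71 to 3.03) and 2.41-fold for Col4a2 (2.25 to 2.59).

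Col4a1 and Col4a2 lie head to head, and the ends of their rows are 2 bases apart on chromosome 8 of mm9 (Col4a1 at chr8:11198423-11312826 on the minus strand, Col4a2 at chr8:11312829-11449286 on the plus strand). Because the pair moved together, their start windows are shown, from RefSeq on GRCm38.p6, each with 250 bases before and 50 after the start. Col4a1 is chr8:11312777-11313076 on the minus strand and Col4a2 is chr8:11312555-11312854 on the plus strand, each read 5′ to 3′ on the gene's own strand, and the windows share 78 bases. The starts behind these windows are placed differently from the mm9 rows relative to each other, so the 2-base gap does not hold for the windows. Capitals mark GC boxes (GGGCGG on either strand) and CCAAT boxes (CCAAT on either strand), which do not overlap each other here.
Col4a1: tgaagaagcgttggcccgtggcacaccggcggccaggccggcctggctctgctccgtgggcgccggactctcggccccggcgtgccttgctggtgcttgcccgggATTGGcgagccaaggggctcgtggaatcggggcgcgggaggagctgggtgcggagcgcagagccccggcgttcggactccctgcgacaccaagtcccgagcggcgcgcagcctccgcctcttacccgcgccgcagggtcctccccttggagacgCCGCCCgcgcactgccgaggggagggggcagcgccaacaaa
Col4a2: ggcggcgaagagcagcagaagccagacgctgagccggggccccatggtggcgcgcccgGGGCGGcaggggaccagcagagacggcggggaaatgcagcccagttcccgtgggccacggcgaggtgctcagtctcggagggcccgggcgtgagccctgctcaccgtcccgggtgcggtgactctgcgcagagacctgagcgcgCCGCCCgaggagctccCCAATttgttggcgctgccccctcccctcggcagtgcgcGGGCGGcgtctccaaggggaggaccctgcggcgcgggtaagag
The Col4a1 window held 1 GC box and 1 CCAAT box, and the Col4a2 window held 3 GC boxes and 1 CCAAT box. The Col4a1 GC box and the last Col4a2 GC box are the same site, inside the 78 shared bases. Among the 32851 windows of 300 bases in the table, 35.7% held a GC box and 37.4% a CCAAT box. Windows were found for 7 of the 10 genes (not for Lama1, Lamc1 and Nid2), of which 6 held a GC box, 4 a CCAAT box and none the letters TATAAA (13.6% of all windows), AGATAA (11.2%), TGATAA (9.05%) or ACAAT (31.0%), each searched on both strands. Their GC content was 55.3% to 74.0%, above the median of all windows (52.7%) in all 7. These matches describe the letters and say nothing of which factors bind.

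Lama1, the alpha chain of laminin-111, measured 13.1 RPKM in GFP, 6.47 in SMC1, 11.3 and 12.8 in CAPH2 R1 and R2, and 12.0 and 14.0 in SMC2 R1 and R2. Lama5, the alpha chain of laminin-511, measured 30.4 RPKM in GFP, 48.0 in SMC1, 34.4 and 32.9 in CAPH2 R1 and R2, and 30.5 and 35.0 in SMC2 R1 and R2. SMC1 was thus the lowest library for Lama1 and the highest for Lama5. Against GFP, Lama1 was 2.03-fold lower in SMC1 (95% counting interval 1.89 to 2.18) and Lama5 1.58-fold higher (1.53 to 1.63). Lama1 passed 2-fold narrowly, and with a pseudocount of 1 added to RPKM its log2 change was -0.92.

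Lamb1, the shared beta chain, measured 32.6 RPKM in GFP, 46.7 in SMC1, 36.8 and 32.3 in CAPH2 R1 and R2, and 32.5 and 35.4 in SMC2 R1 and R2. Lamc1, the shared gamma chain, measured 81.7 RPKM in GFP, 49.0 in SMC1, 77.3 and 81.4 in CAPH2 R1 and R2, and 76.0 and 89.3 in SMC2 R1 and R2. The partner chains of a trimer therefore also went opposite ways in SMC1, unless libraries are scaled to spike-in RNAs. Lamb1 was 1.43-fold higher than in GFP (1.38 to 1.49) and Lamc1 1.67-fold lower (1.62 to 1.72).

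Nid1 and Nid2, the nidogens, had the smallest changes of the 10 in SMC1 against GFP by RPKM. Nid1 ranged from 20.4 to 25.6 RPKM over the 6 libraries and stood at 22.5 in SMC1, inside the range of the other 5. Nid2 was 82.6 RPKM in GFP, 65.9 in SMC1 and 68.5 to 74.4 in the 4 condensin libraries. The last 386 bases of the Nid2 row overlap the row of Rtraf on the opposite strand, whose log2 change in SMC1 was -0.44. The library kit does not mark strand, so reads in that overlap cannot be assigned to one gene.

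Hspg2, the perlecan gene, was 47.7 RPKM in GFP, 68.7 in SMC1, 52.5 and 50.4 in CAPH2 R1 and R2, and 50.5 and 56.1 in SMC2 R1 and R2. Sparc was 171 RPKM in GFP, 277 in SMC1, 200.2 and 164 in CAPH2 R1 and R2, and 166 and 157 in SMC2 R1 and R2. SMC1 was the highest library for both, at 1.44-fold (Hspg2, 1.41 to 1.47) and 1.62-fold (Sparc, 1.57 to 1.66) the level in GFP.

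**Figure D2:**
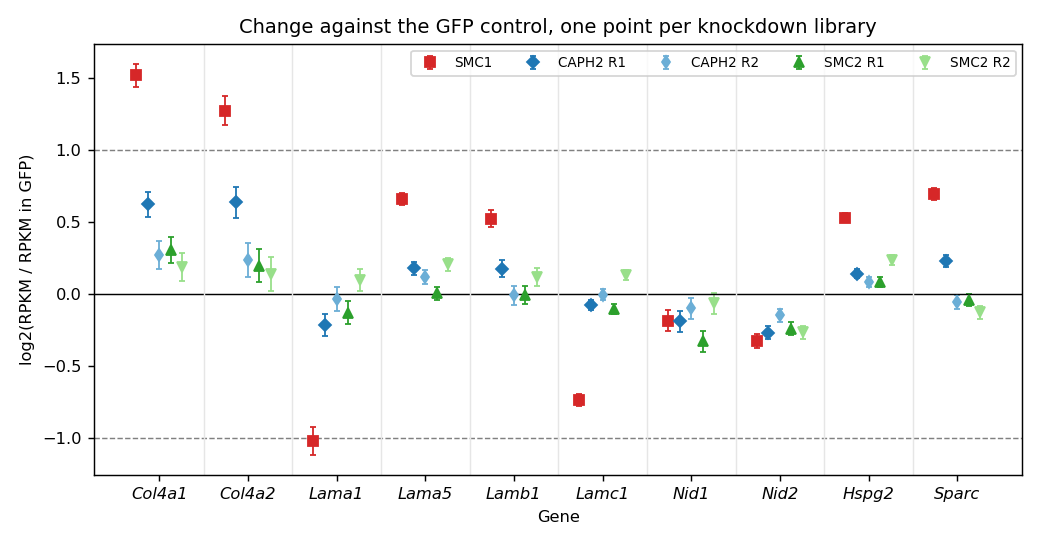
Change in RPKM against the GFP library (log2) for the 10 genes, 1 point per knockdown library, with 95% exact binomial counting intervals as bars and dashed lines at 2-fold. In SMC1, Col4a1 (1.52) and Col4a2 (1.27) lie above the upper dashed line and Lama1 (-1.02) just below the lower one, and no condensin point passes either line.

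Ratios of 2 genes inside a library do not depend on how libraries are scaled. The Lama1 level was 0.432 of the Lama5 level in GFP, 0.328 and 0.389 in CAPH2 R1 and R2, 0.393 and 0.400 in SMC2 R1 and R2, and 0.135 in SMC1 (95% counting interval 0.127 to 0.143). The sum of the 2 alpha chains was 43.5 RPKM in GFP and 54.4 in SMC1, and Lama1 made up 30.2% of it in GFP and 11.9% in SMC1. The Lamb1 level was 0.396 to 0.475 of the Lamc1 level in the 5 libraries other than SMC1 and 0.955 in SMC1 (0.921 to 0.990). For both laminin ratios SMC1 lay outside the range of the other libraries.

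The collagen IV and nidogen ratios varied less. Col4a1 was 1.46 to 1.59 times Col4a2 in the 5 other libraries and 1.75 times in SMC1 (1.66 to 1.84). Nid1 was 0.292 to 0.357 of Nid2 in the 5 other libraries and 0.342 in SMC1. The 2 nidogens thus kept a ratio in SMC1 inside that range, while the collagen IV ratio in SMC1 lay above it. A ratio shows unequal change between 2 transcripts and not which of them moved.

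**Figure D3:**
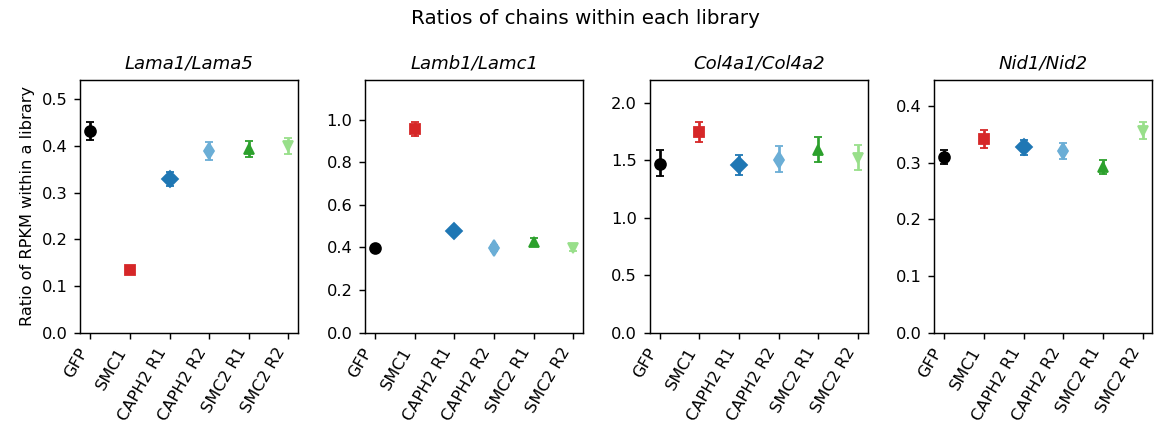
RPKM ratio of 2 chains inside each of the 6 libraries, on axes that start at 0, with 95% exact binomial counting intervals. In SMC1 the Lama1/Lama5 ratio is 0.135 against 0.328 to 0.432 elsewhere and the Lamb1/Lamc1 ratio 0.955 against 0.396 to 0.475, while Nid1/Nid2 lies inside the range of the other libraries.

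The SMC1 library was next tested against the 4 condensin libraries, with edgeR's quasi-likelihood test and Benjamini-Hochberg adjustment over all 18463 rows tested. The spread came from the pairs of condensin hairpins, with 2 residual degrees of freedom, and the lone SMC1 library was assumed to vary like them. Of the 10 genes, 8 passed an adjusted p of 0.05, 6 of them higher in SMC1, where 23.1% of all rows were called higher, and 2 lower, where 21.3% were called lower. The comparison does not use the GFP library in its contrast, but the 2 share the SMC1 library.

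Col4a1 rose by 1.14 log2 units (SE 0.110, edgeR adjusted p = 4.8e-05) and Col4a2 by 0.94 (SE 0.120, edgeR adjusted p = 0.00025), that is 2.21-fold and 1.92-fold. Lama1 fell by 0.97 (SE 0.115, edgeR adjusted p = 0.00016) and Lamc1 fell by 0.75 (SE 0.0950, edgeR adjusted p = 0.00024). Smaller rises passed for Sparc (0.66), Lama5 (0.51), Lamb1 (0.43) and Hspg2 (0.37), with edgeR adjusted p-values of 0.00046 to 0.0032. Nid1 (log2 change -0.04, SE 0.101) and Nid2 (-0.12, SE 0.0747) did not pass, with edgeR adjusted p = 0.77 and 0.23. All 8 calls were also made by DESeq2 and without each condensin library in turn.

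The synthetic ERCC RNAs gave another scale, as they were added per counted cell. They made up 0.948% of counts in SMC1 and 1.72% in GFP, so scaling to them raised every SMC1 to GFP log2 ratio by 0.86, members and other rows alike. On that scale Col4a1 (2.38), Col4a2 (2.14), Sparc (1.56), Lama5 (1.52), Hspg2 (1.39) and Lamb1 (1.38) were all more than 2-fold higher in SMC1 than in GFP, Lama1 was at -0.16, and Lamc1 (0.13), Nid1 (0.68) and Nid2 (0.54) turned from lower to higher. In the test against the condensin libraries, ERCC counts as library size moved the median row by 0.42 and left Col4a1 as the only one of the 10 genes to pass (edgeR adjusted p = 0.017), with 1 of 10 called and 1711 of 18463 rows (9.27%). The coefficient of variation between libraries that the fit estimated also rose, from 0.067 to 0.249. Col4a2 missed the threshold at a larger change (1.34, edgeR adjusted p = 0.0505) than under TMM (0.94). The spike-in scale itself varied within a group, with an ERCC share of 1.11% in CAPH2 R1 and 1.77% in CAPH2 R2. Scaling moves all 10 genes by the same amount in SMC1 against GFP, so their order there does not change.

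**Figure D4:**
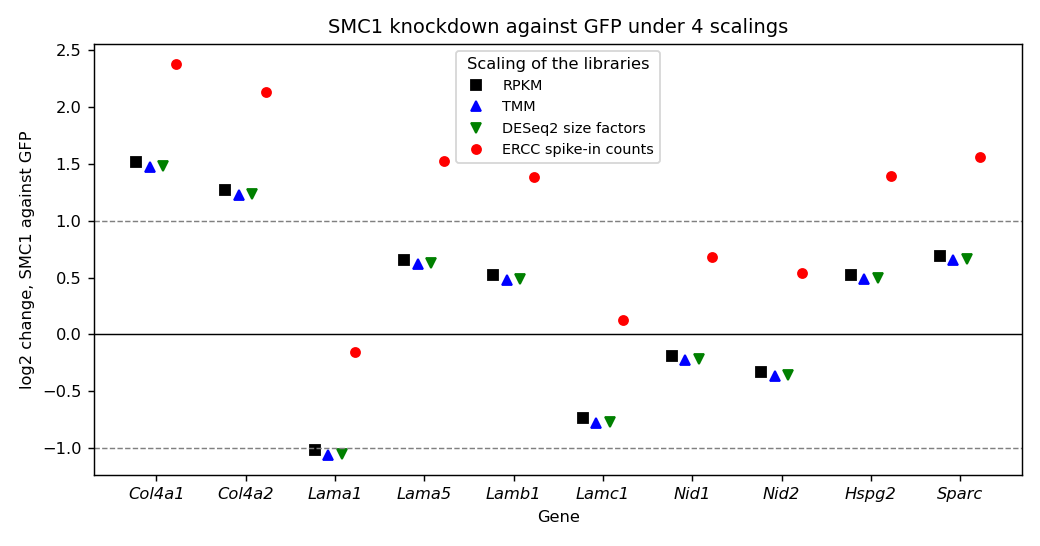
Log2 change of each gene in SMC1 against GFP with libraries scaled by the deposited RPKM, by edgeR's TMM factors, by DESeq2's size factors or by ERCC counts. The first 3 scalings nearly coincide, and ERCC scaling lies 0.86 higher for every gene, which takes Lamc1, Nid1 and Nid2 from below to above 0.

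With neither condensin subunit knocked down did any of the 10 genes change by 2-fold. Smc2 itself stayed at 70.7% and 71.9% of GFP in SMC2 R1 and R2. Against GFP, by the mean RPKM of both hairpins, 0 of 10 passed that threshold with CAPH2 (0.985% of all rows did, in either direction) and 0 of 10 with SMC2 (0.702% of all rows). With CAPH2 the largest changes of the group means were those of Col4a1 (0.46) and Col4a2 (0.45), and with SMC2 those of Nid2 (-0.26) and Col4a1 (0.25). The log2 change of Col4a1 was 0.62 and 0.27 in CAPH2 R1 and R2 and 0.31 and 0.19 in SMC2 R1 and R2, and that of Col4a2 was 0.63, 0.24, 0.19 and 0.14 in the same order. Both genes were above GFP in all 4 condensin libraries, and so were Lama5 and Hspg2. Nid1 and Nid2 were below GFP in all 4 by RPKM. The CAPH2 and SMC2 means of both nidogens turned to above GFP with scaling to spike-in RNAs. Counting intervals included no change for Lama5 in SMC2 R1 (fold 1.003, 0.971 to 1.035) and Nid1 in SMC2 R2 (0.955, 0.908 to 1.003). With SMC1 counted too, GFP was the lowest library for 4 of the 10 genes and the highest for 2. Over all 15538 rows those shares were 26.9% and 32.0%. Those 6 directions were read against a single GFP library, which all these comparisons share.

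In the edgeR test of the 4 condensin libraries against GFP, 0 of the 10 genes passed, against 12.5% of the 18463 rows. At an unadjusted p under 0.05 there were 3, Col4a1 (log2 change 0.36, SE 0.123, edgeR adjusted p = 0.082), Col4a2 (0.32, SE 0.133, edgeR adjusted p = 0.14) and Nid2 (-0.22, SE 0.0727, edgeR adjusted p = 0.074), and DESeq2 also called 0. These calls changed with the CAPH2 library left out and with the filter. Without CAPH2 R2 all 3 of these genes passed, without CAPH2 R1 Col4a1 passed, and with no filter on low counts Col4a1 and Nid2 passed. The shares of all rows called under those settings were 27.1%, 19.1% and 14.0%.

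SMC2 and CAPH2 could be compared with 2 libraries on each side. Those of a group are different hairpins, so the spread includes differences between hairpins. In the edgeR test of SMC2 against CAPH2, 0 of the 10 genes passed, and 1 of 18245 rows did (0.00548%). At an unadjusted p under 0.05 there was 1, Col4a2 (log2 change -0.27, SE 0.116, edgeR adjusted p = 1.0), and DESeq2 also called 0. Changes over the other 9 ran from -0.20 (Col4a1) to 0.12 (Lama1). Without CAPH2 R2, which leaves CAPH2 R1 alone in its group, Col4a1, Col4a2 and Sparc were called lower in SMC2, and 2.22% of all rows were called in either direction. A p that misses the threshold does not show that SMC2 and CAPH2 depletion act alike.

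The other chains and components of basement membranes were mostly scarce. The most abundant of them were Col18a1 (80.3 RPKM in GFP, 83.3 in SMC1) and Agrn (59.2 and 89.7), within the range of the 10 genes. Col4a3 and Col4a4 stayed under 0.05 RPKM in every library, Col4a5 at 1.06 to 2.35 and Col4a6 at 0.107 to 0.485, with the SMC1 library the highest for each of these 4 genes. Among the laminin alpha chains, Lama2 ranged from 0.033 to 0.353 RPKM, Lama3 from 0.523 to 0.886 and Lama4 from 0.394 to 1.01. Of the 25 genes of that list, 10 had at least 1 RPKM in GFP and 3 of these were at least 2-fold higher in SMC1 (6.49% over all rows), with a median log2 change of 0.48 against -0.02 over all rows. In the edgeR test against the condensin libraries, 22 were tested, 12 rose and 2 fell, where 23.1% of all rows rose and 21.3% fell. The largest SMC1 to GFP changes among those with at least 50 reads on average were those of Smoc2 (log2 change 1.92), Tinagl1 (1.45) and Lama4 (1.16).

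Genes that fold, secrete and crosslink collagen split. Of the 14 found, 6 rose and 1 fell in SMC1 against the condensin libraries by edgeR (23.1% and 21.3% over all rows), and the median log2 change against GFP was 0.03 over the 13 with at least 1 RPKM. Pxdn, which crosslinks collagen IV, was 10.9 RPKM in GFP, 31.8 in SMC1 and 10.5 to 12.6 in the condensin libraries (log2 change in SMC1 against GFP 1.54). Serpinh1, the collagen chaperone HSP47, was 81.9 RPKM in GFP, 136 in SMC1 and 81.2 to 93.7 in the condensin libraries (0.74). Loxl2, a lysyl oxidase-like enzyme, changed by 0.86 and Crtap, a partner of prolyl 3-hydroxylase, by -0.56.

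Receptors for laminin and collagen IV were called in 10 of 12 cases, with 8 rising and 2 falling in the same edgeR test, where 44.4% of all rows were called. Itgb1, the beta 1 integrin subunit shared by laminin and collagen receptors, was 85.8 RPKM in GFP, 201 in SMC1 and 96.8 to 111 in the condensin libraries (log2 change in SMC1 against GFP 1.23). Ddr1, a collagen receptor kinase, was 25.2 RPKM in GFP, 57.3 in SMC1 and 25.3 to 31.5 in the condensin libraries (1.19). Itga1, the collagen-binding alpha 1 integrin subunit, was scarcer, at 0.318 RPKM in GFP, 2.23 in SMC1 and 0.786 to 1.02 in the condensin libraries (2.81). Itga3, a laminin-binding alpha subunit, changed by 0.85. The 2 that fell against the condensin libraries were Itga6 (log2 change -0.38, edgeR adjusted p = 0.0056) and Sdc4 (-0.68, edgeR adjusted p = 0.011). Itga6 was 35.0 RPKM in GFP and 30.7 in SMC1.

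Of 14 matrix proteases and their inhibitors, 11 rose and 1 fell in SMC1 against the condensin libraries (23.1% and 21.3% over all rows). Of the 12 with at least 1 RPKM in GFP, 7 were at least 2-fold higher in SMC1 than in GFP (6.49% over all rows), with a median log2 change of 1.26. Timp3, an inhibitor of metalloproteinases that binds matrix, was 6.54 RPKM in GFP, 34.2 in SMC1 and 12.3 to 18.2 in the condensin libraries. Plau, the urokinase plasminogen activator, and Timp2 changed by 2.61 and 1.79 (log2) against GFP.

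**Figure D5:**
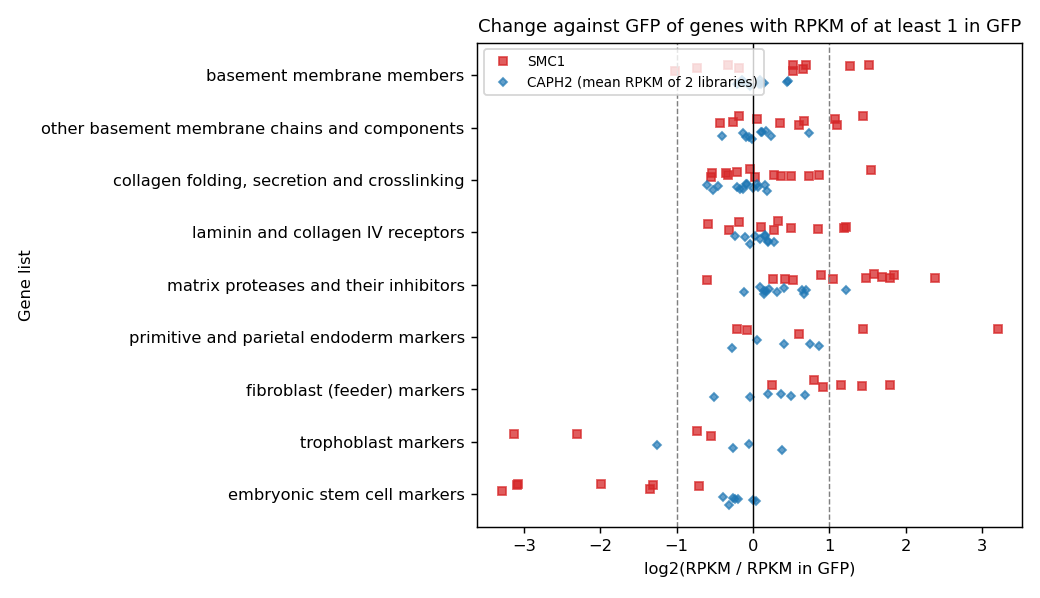
Log2 change in RPKM against GFP for genes with at least 1 RPKM in GFP, grouped by list, in the SMC1 library (red squares) and for the mean of both CAPH2 libraries (blue diamonds), with dashed lines at 2-fold and vertical scatter for legibility only. Matrix proteases and their inhibitors lie mostly to the right in SMC1 (median 1.26), ESC markers to the left (median -1.99), and the 10 basement membrane genes on both sides.

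Some fibroblast markers moved beside the collagen IV genes. Fibroblast markers, which feeders would carry, summed to 52.3 RPKM in GFP, 113 in SMC1, 79.4 in CAPH2 R1 and 57.1 to 63.1 in the other 3 libraries, so SMC1 was highest, CAPH2 R1 next and GFP lowest, as for Col4a1 and Col4a2. Col1a1 (20.8 RPKM in GFP, 39.4 in SMC1, 36.1 in CAPH2 R1) and Col1a2 (12.3, 33.2 and 22.8 in the same order) made up most of the sum. Prrx1 kept that order too (0.571 RPKM in GFP, 2.04 in SMC1, 1.31 in CAPH2 R1), as did the scarce Dcn. The other members did not keep it. Thy1 was 8.52 RPKM in GFP and 5.36 to 7.04 in the condensin libraries. Postn was highest in CAPH2 R1 (1.59 RPKM against 1.29 in SMC1), and Twist1 was lower in CAPH2 R1 (5.68 RPKM) than in the other 3 condensin libraries. In the test against the condensin libraries 7 of the 8 tested rose (23.1% over all rows). Of the list, Col1a2 changed by 1.43, Col3a1 by 1.15, Twist1 by 1.80 and Prrx1 by 1.84 (log2, SMC1 against GFP). Lum, Fap and Dcn, which mark fibroblasts, stayed at or under 0.125, 0.039 and 0.56 RPKM, each highest in SMC1 but for Fap. The part of fibroblasts in the collagen IV values was not tested.

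Endoderm of the early embryo is a strong source of laminin-111 and collagen IV. Its transcription factors were low in all 6 libraries, with Gata6 at 0.505 to 0.815 RPKM, Sox17 at 0.119 to 0.329, Foxa2 at 0.138 to 0.734 and Gata4 at 2.26 to 3.59. The 13 endoderm markers summed to 16.8 RPKM in GFP, 77.5 in SMC1 and 22.2 to 23.3 in the condensin libraries, with 60.4 RPKM of the SMC1 sum from Lrp2, an endocytic receptor that other epithelia also carry. Of the 12 tested, 4 rose in SMC1 against the condensin libraries, against 23.1% of all rows. Thbd, Dab2 and Cubn changed by 1.84, 1.44 and 0.97 (log2, SMC1 against GFP), while Gata6, Amn and Srgn had values of -0.50, -0.21 and -0.08. Cubn stood at -0.40 in SMC1 against the condensin libraries and did not pass that test. Their part in the values of the 10 genes was not tested.

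Trophoblast markers summed to 64.7 RPKM in GFP, 15.6 in SMC1 and 51.3 to 55.9 in the condensin libraries, of which Tfap2c alone was 51.2 RPKM in GFP and 5.85 in SMC1. Of the 6 tested, 2 rose and 3 fell in SMC1 against the condensin libraries (23.1% and 21.3% over all rows). Tfap2c (log2 change in SMC1 against GFP -3.13), Ascl2 (-2.30) and Hand1 (-0.74) were lower and Gata3 (1.26) higher. Hand1 did not pass against the condensin libraries (edgeR adjusted p = 0.11). The 3 that fell there were Tfap2c, Ascl2 and Eomes, the last at 5.03 RPKM in GFP and 3.43 in SMC1. Cdx2, which averaged under 50 reads, was 0.325 RPKM in GFP and 2.59 in SMC1 (3.00) and rose against the condensin libraries (log2 change 1.52, edgeR adjusted p = 0.00083). The ESC markers Esrrb (-3.29), Klf4 (-3.09), Tfcp2l1 (-3.07) and Zfp42 (-1.99) had the lowest values among the 7, all of which fell in SMC1 against the condensin libraries.

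Genes outside the lists were ranked by how near they lay to a profile of 5 chains. The median log2 profile of Col4a1, Col4a2, Lama1, Lamb1 and Lamc1 against GFP was 0.52 in SMC1, 0.17 and -0.01 in CAPH2 R1 and R2, and -0.01 and 0.13 in SMC2 R1 and R2. Over those 5 libraries, which share the GFP library, the nearest of 11491 genes by root mean square distance were Ugp2 (0.0211), Ttc17 (0.0484), 4632415L05Rik (0.0513), Zfp251 (0.0523) and Inpp5f (0.0530). Since Col4a1 and Lama1 went opposite ways, that median describes neither of them. It nearly matched Lamb1, at 0.52, 0.17, -0.01, -0.01 and 0.12 in the same order, so the ranking found genes near Lamb1.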

How the data were processed

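The authors aligned the reads of 6 libraries, made with a kit that does not mark strand, to mm9 with Bowtie and counted exonic reads per RefSeq transcript with RPKM_count. The deposited tables hold those raw counts and the RPKM the authors computed from them, for 26073 RefSeq rows and 92 ERCC RNAs. RefSeq rows carry accessions, and 25353 were paired with a gene symbol through a RefSeq gene table.

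SMC1, CAPH2 and SMC2 were each compared with GFP by RPKM ratios (rows with at least 1 RPKM in GFP, called at 2-fold, no test), with exact binomial 95% intervals that cover counting error only. Counts were tested with edgeR 4.0.16 (quasi-likelihood, TMM, at least 10 counts in at least 2 libraries, Benjamini-Hochberg over all rows), after a check on simulated data. DESeq2 1.42.0 was an alternative. Same-numbered CAPH2 and SMC2 libraries are different hairpins and were not treated as pairs.

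The 10 genes and the gene lists were chosen with earlier results of these data known. Named from each list were up to 4 genes with the largest SMC1 to GFP change and at least 50 counts on average, besides whole chain families, and further markers named after their values were seen. Results for 2 genes that this rule names are not reported here. The 5 genes of like pattern were those nearest the median profile of 5 chains.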

Additional observations from a re-analysis of the deposited data

How the results depend on the processing

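Each of the 10 genes has a single row, so choosing the row with the fewest counts gives no other value. In SMC1 against GFP, 3 of the 10 genes were past 2-fold, and 6 were with ERCC counts. In SMC1 against the condensin libraries, 8 of the 10 genes and 8197 rows were called, and with ERCC counts 1 gene and 1711 rows were, and Nid1 turned to 0.39 and Nid2 to 0.31. In the condensin libraries against GFP, 2 members were called with no filter and 0 to 3 with a library left out. Over all rows 2302 were called, 1424 by DESeq2, 2 with ERCC counts and 1563 to 4993 with a library left out. There ERCC counts turned Lama1 (0.39), Lamc1 (0.45), Nid1 (0.29) and Nid2 (0.23), and Sparc turned with DESeq2 (-0.0045) and with its size factors in edgeR (-0.0044). With libraries left out, Lamc1 ran from -0.079 to 0.035 and Sparc from -0.059 to 0.063 against GFP, and Nid1 from -0.10 to 0.031 in SMC1 against condensin.

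In SMC2 against CAPH2, 0 to 3 members and 1 to 404 rows were called with a library left out, and the rows called were 5 by DESeq2, 3 with its size factors in edgeR, 4 with ERCC counts, 8 with no filter, 3 with 1 row per gene and 3 with all 6 libraries fitted. ERCC counts turned Col4a1 (0.024), Lama5 (0.22), Lamb1 (0.22), Nid1 (0.23), Nid2 (0.24) and Sparc (0.065). With libraries left out, Lama5 ran from -0.13 to 0.068, Lamb1 from -0.11 to 0.073, Lamc1 from -0.051 to 0.18, Nid1 from -0.17 to 0.089, Nid2 from -0.10 to 0.024 and Hspg2 from -0.016 to 0.13. With the replicate number as a replicate block 15 rows and 0 members were called. Same-numbered libraries deviated together with r = 0.0488 over rows. That value cannot show whether they were handled as pairs, because the libraries of a group also differ in hairpin. The cause of these changes was not tested. Depth did not limit the 10 genes, which had at least 1143 reads per library, but a single GFP and a single SMC1 library leave their own variation unmeasured.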
